A study of Mus musculus with 16 samples.

Results

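The genes described here encode the machinery that imports proteins into mitochondria, the Timm and Tomm genes, and the carriers of the Slc25a family, most of which move metabolites across the inner mitochondrial membrane. They were chosen by name: 66 of the 23234 named genes in the deposited table have a symbol that starts with Timm, Tomm or Slc25a followed by a number. Of these, 54 reached at least 1 FPKM (a read count scaled to transcript length and library size) in at least 2 of the 16 libraries, 11 Timm, 9 Tomm and 34 Slc25a genes. The same rule kept 11266 genes of the whole table, and those were tested. The kept genes nearest the limit were Slc25a43, at 1 FPKM or more in 2 libraries, and Slc25a29, in 4. Just outside it were Slc25a18, which reached 1.24 FPKM in 1 library and 0.698 in the next, and Slc25a47, at 1.12 and 0.891. The other 10 genes left out, Slc25a2, Slc25a21, Slc25a24, Slc25a27, Slc25a31, Slc25a34, Slc25a41, Slc25a48, Timm8a2 and Tomm20l, stayed below 1 FPKM in every library.

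The libraries hold mRNA of antigen-specific B cells sampled between the germinal centre's light zone and the memory pool. All of them came from C57BL/6 donor B cells of the genotype Bcl6-YFP(KI/+) B1-8hi(KI/+), which carry a fluorescent reporter of the transcription factor Bcl6 and a heavy chain that binds the hapten NP. Wild-type CD45.1+ hosts received these cells and NP-CGG in alum, and on day 10 the donor cells that bound NP, carried IgG1 and lacked CD138 were sorted from a pool of 9 spleens. The labels give neither age nor sex. The LZ gate (3 libraries) took light zone cells that lacked CD38, with CXCR4 low and CD86 high. Fraction 2 (2 libraries) and Fraction 3 (3 libraries) were cut from that gate at high Bcl6-YFP, the former at high CD69 and described in the labels as recycling-prone, the latter at low CD69 and described as under selection. CD38-positive, GL7-negative cells made up the later gates: in Fraction 5 (3 libraries, pro-memory) both Bcl6-YFP and Efnb1 were high, in Fraction 6 (2 libraries, pre-memory) Efnb1 alone was, and in Fraction 7 (3 libraries, mature memory) neither was. Since all donor cells share 1 receptor heavy chain and 1 antigen, the gates model a single specificity.

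Nearly all mitochondrial proteins are encoded in the nucleus, made in the cytosol and carried through the outer membrane by the TOM complex, whose channel is Tomm40. Proteins bound for the matrix go on through the TIM23 complex and its motor, while hydrophobic carriers are escorted across the intermembrane space by small chaperones, the small TIM proteins, to the TIM22 complex, which inserts them into the inner membrane. The Slc25a carriers are the largest group of that cargo and exchange nucleotides, phosphate, organic acids, amino acids and cofactors between cytosol and matrix. Germinal centre B cells divide fast and are known for active mitochondria, and memory B cells are resting cells.

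The small TIM genes Timm8a1, Timm9 and Timm10 showed the largest differences of the import genes between Fraction 5 and Fraction 2, together with Tomm40, so the start regions of these genes are shown with that of the carrier gene Slc25a5, which differed in all 6 comparisons. Timm9 was added to the set after its values were seen. Each window is from RefSeq on GRCm38.p6, another build than the mm9 of the deposited values, and runs from 250 bases before the annotated start to 50 bases after it, written 5′ to 3′ on the strand of the gene. Capitals mark CACGTG, the E-box bound by Myc and related factors, and CCGGAAG, a core of ETS family sites, on either strand. The windows lie at chrX:134541621-134541920 (minus strand) for Timm8a1, chr12:71136626-71136925 (minus strand) for Timm9, chr2:84826771-84827070 (plus strand) for Timm10, chr7:19715380-19715679 (minus strand) for Tomm40 and chrX:36795347-36795646 (plus strand) for Slc25a5.
Timm8a1: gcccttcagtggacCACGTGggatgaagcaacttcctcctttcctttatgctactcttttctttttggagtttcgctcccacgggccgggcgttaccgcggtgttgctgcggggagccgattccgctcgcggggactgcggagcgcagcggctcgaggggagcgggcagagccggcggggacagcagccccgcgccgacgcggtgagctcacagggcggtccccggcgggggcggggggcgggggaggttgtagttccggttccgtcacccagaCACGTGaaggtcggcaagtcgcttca
Timm9: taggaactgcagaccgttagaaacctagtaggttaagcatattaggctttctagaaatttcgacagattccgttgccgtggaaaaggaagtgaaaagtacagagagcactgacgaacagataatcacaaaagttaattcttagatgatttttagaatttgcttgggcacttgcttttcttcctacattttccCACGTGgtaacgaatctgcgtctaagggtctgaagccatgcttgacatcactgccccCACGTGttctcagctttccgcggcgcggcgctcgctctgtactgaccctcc
Timm10: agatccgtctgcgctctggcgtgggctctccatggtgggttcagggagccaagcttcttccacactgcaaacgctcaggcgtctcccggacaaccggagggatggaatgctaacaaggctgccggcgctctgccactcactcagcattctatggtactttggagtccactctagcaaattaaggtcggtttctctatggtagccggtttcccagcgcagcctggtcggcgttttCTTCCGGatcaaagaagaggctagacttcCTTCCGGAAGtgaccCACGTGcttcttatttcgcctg
Tomm40: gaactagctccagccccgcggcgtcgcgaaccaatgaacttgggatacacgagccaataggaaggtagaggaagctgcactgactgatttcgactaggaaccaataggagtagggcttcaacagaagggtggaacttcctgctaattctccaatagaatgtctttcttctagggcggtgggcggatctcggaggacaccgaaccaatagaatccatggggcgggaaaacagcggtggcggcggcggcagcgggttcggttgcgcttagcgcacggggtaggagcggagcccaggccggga
Slc25a5: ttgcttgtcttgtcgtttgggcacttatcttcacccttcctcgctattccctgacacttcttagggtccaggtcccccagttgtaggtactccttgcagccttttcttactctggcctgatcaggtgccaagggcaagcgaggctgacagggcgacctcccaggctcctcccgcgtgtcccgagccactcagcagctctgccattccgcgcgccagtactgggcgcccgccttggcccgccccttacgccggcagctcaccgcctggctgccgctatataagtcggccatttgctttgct
The window of Timm8a1 holds CACGTG from base 15 and from base 275, that of Timm9 from base 193 and from base 250, and that of Timm10 from base 279. In the Timm10 window the ETS core is found from bases 235, 264 and 267, where the last 2 matches are on opposite strands and overlap. Neither core is present in the windows of Tomm40 and Slc25a5.

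A window was found for 45 of the 54 genes, 55 windows in all because some genes have more than 1 annotated start. CACGTG was present in 11 of the 55 windows (20% of them), in windows of Slc25a1, Slc25a13, Slc25a14, Slc25a15, Slc25a33, Slc25a36, Timm10, Timm8a1, Timm9 and Tomm20, against 10.3% of the 9965 windows of tested genes and 7.15% of all 32851 windows of the same length. CCGGAAG was present in 13 windows (23.6%), against 18.9% of the windows of tested genes and 8.86% of all. The palindromic core bound by NRF1, a factor known for genes of the respiratory chain, was in 0 of the 55 windows, against 2.24% and 0.971%. By the test used below, 6 of the 10 genes with CACGTG and 14 of the 35 whose windows lack it were lower in Fraction 5 than in Fraction 3, where 19.5% of all genes were. The numbers were 8 and 18 in Fraction 5 against Fraction 2 (27.1% of all genes) and 8 and 23 in Fraction 7 against LZ (38.0%). These shares describe letters in windows of 300 bases and say nothing of binding. The share of falls among all tested genes with CACGTG was not counted, and the part of the motif in the falls was not tested.

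The transcripts of Bcl6, Efnb1 and Cd38 mostly followed the gating. Bcl6 reached 145.1 to 205 FPKM in the 4 gates LZ, Fraction 2, Fraction 3 and Fraction 5, then 75.3 and 70.2 in Fraction 6, and only 15.01 to 20.5 in Fraction 7. Efnb1 was at 1.93 to 2.37 FPKM in Fraction 7 and at 27.5 or more elsewhere. Between Fractions 5 and 6, both gated at high Efnb1, it fell from 64.2 ± 5.48 to 29.9 ± 3.48 FPKM. The log2 difference was -1.08 (adjusted p = 2.05e-05 by the test used below). Cd38 was at 48.2 FPKM or more in Fractions 5 to 7 against 12.8 or less in the other gates. Cd69, which parted Fractions 2 and 3 as a protein, did not pass the test as mRNA (adjusted p = 0.361). The summed level of 5 B cell markers lay between 2274 and 4174 FPKM in every library, and the T cell gene Cd3e at or below 0.103. The T cell markers found summed to 19.6 to 36.7 FPKM in the gates before Fraction 7 and to 6.53 to 8.54 in Fraction 7, nearly all of it Lck, and the part of this in the results was not tested. The plasma cell markers Sdc1, Prdm1, Xbp1, Igj and Derl3 summed to 90.9 FPKM in library 1 of Fraction 7 but to as much as 403 in its other libraries, where Igj stood at 296 and 292 FPKM against 46.9 in library 1. Total FPKM lay between 416741 and 492578 per library and relative depth between 0.914 and 1.21 times that of LZ library 1. The absolute depth is unknown.

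Values below are FPKM, which is scaled to transcript length, so levels can be set side by side between genes. Errors of means are SD, with n = 2 for Fractions 2 and 6 and n = 3 for the other gates. Differences are log2 differences of log2(FPKM + 1), which understates changes of low genes, and were tested with limma over all 11266 genes. A gene is said to rise, fall or differ where the Benjamini-Hochberg adjusted p is at most 0.05. The labels do not say whether libraries of a gate came from separate sorts, so the p-values rest on a spread that may be technical. In sorted pools, fewer cells of a type and less RNA per cell cannot be told apart.

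Across the 6 gates, 43 of the 54 import and carrier genes differed by limma's F test, against 69.7% of all genes tested. The highest mean was in Fraction 2 for 29 of the 54 genes, where 33.7% of all genes have theirs, and the lowest in Fraction 7 for 25, where 36.6% of all genes have theirs. Among the 20 Timm and Tomm genes 16 were highest in Fraction 2 and 13 lowest in Fraction 7. Summed over the 54 genes, the level was 0.423 to 0.438 percent of all FPKM in LZ, 0.457 to 0.484 in Fraction 2, 0.396 to 0.426 in Fraction 3, 0.331 to 0.340 in Fraction 5, 0.308 to 0.310 in Fraction 6 and 0.284 to 0.286 in Fraction 7. From Fraction 2 on, no gate's range overlapped that of the next. The 3 carrier genes Slc25a3, Slc25a4 and Slc25a5 alone made up 35.6 to 41.6 percent of this sum in each library.

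**Figure D1:**
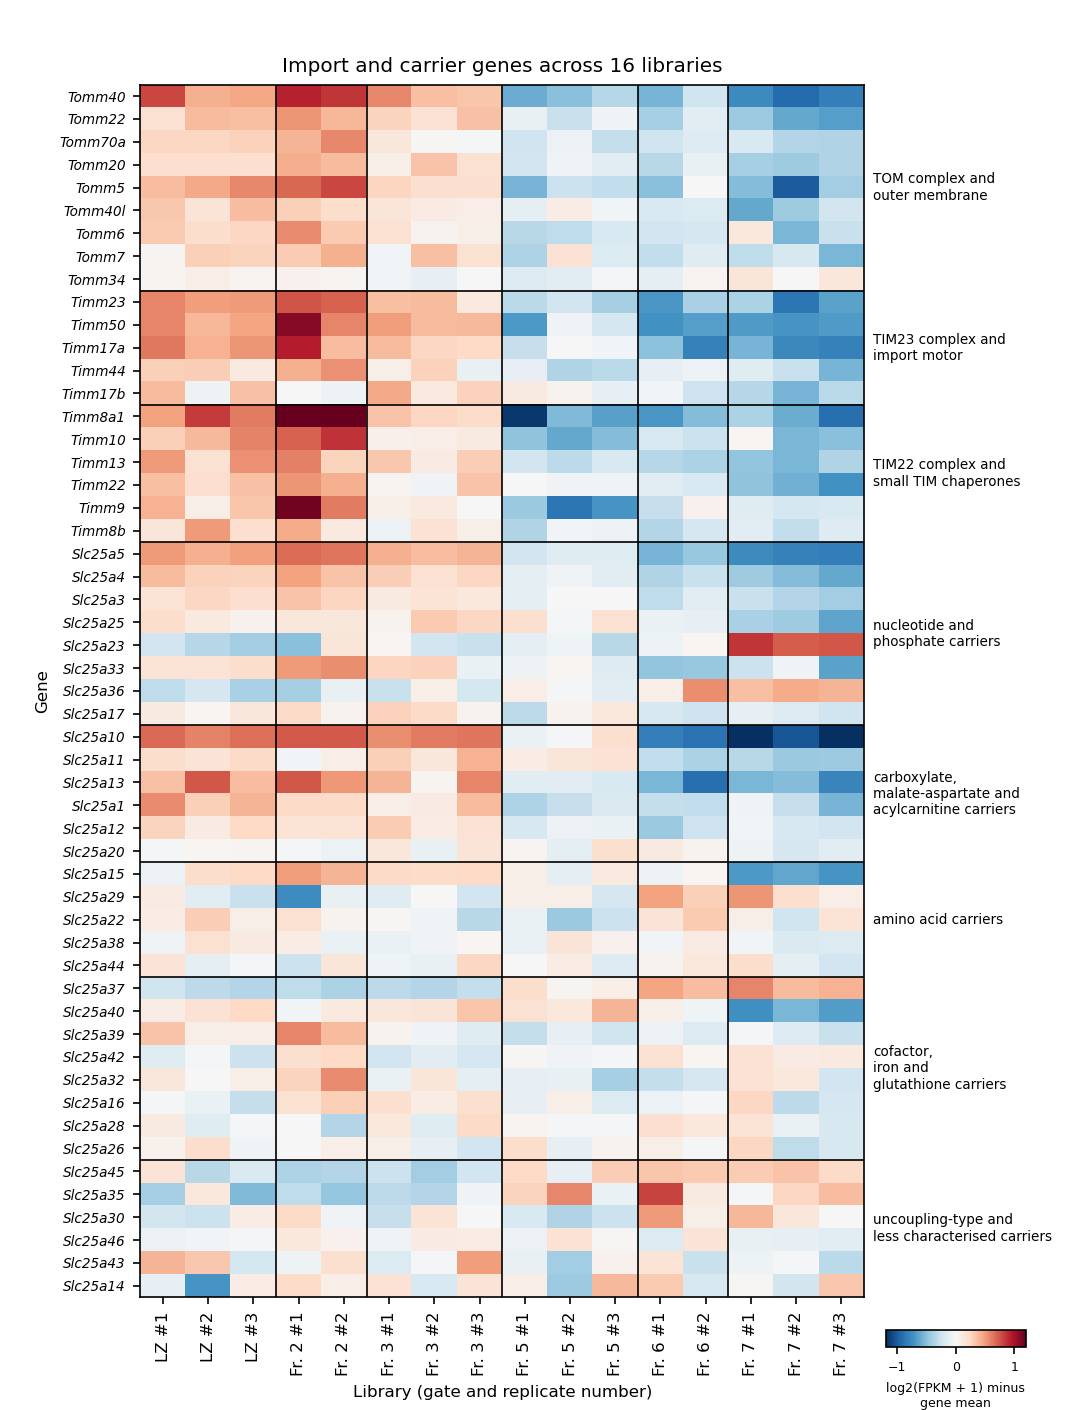
Level of 53 of the 54 genes (rows, grouped by role) in each of the 16 libraries (columns, by gate and replicate number), as log2(FPKM + 1) minus the gene's mean over the libraries; red is above and blue below that mean, and the darkest colours also stand for larger differences. Most Timm and Tomm genes and the first carrier genes are red in LZ and Fractions 2 and 3 and blue in Fractions 5 to 7, while Slc25a37, Slc25a36, Slc25a45 and Slc25a23 run the other way.

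Fraction 2 against Fraction 3 compares the cells with high and low CD69 in 1 light zone gate. Of the 20 Timm and Tomm genes 8 were higher in Fraction 2 and 0 lower, among them the small TIM genes Timm8a1 (1.06), Timm9 (0.83) and Timm10 (0.71), which had the largest differences, and the receptor gene Tomm70a (0.45). Of the 34 carrier genes 3 rose and 1 fell. Together 11 of 54 genes were higher, against a background of 9.17% of all genes, and 1 was lower, against 6.45%. The median difference of the 54 genes was 0.15 and that of all genes 0.04. The gates did not overlap for 25 of the 54 genes in the direction of Fraction 2 and for 3 in the other, against 28.7% and 19.4% of all genes. Fraction 2 has only 2 libraries, and without library 1 the higher genes numbered 3, without library 2 they numbered 5, and without library 3 of Fraction 3 they numbered 7. Timm8a1 was the 1 gene called whichever library was left out.

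Fraction 5 was set against Fractions 3 and 2 to compare cells labelled pro-memory, still high for Bcl6-YFP, with light zone cells. Against Fraction 3, 20 of the 54 genes fell, where 19.5% of all genes did, and 2 rose, where 9.99% did, with medians of -0.21 for the 54 genes and -0.03 for all. The falls were mainly among import genes, 14 of 20 with 0 rises, against 6 of 34 carrier genes with 2 rises. Against Fraction 2, 28 of the 54 genes fell (background 27.1%) and 2 rose (background 16.6%), with medians of -0.37 and -0.04. Here 17 of 20 import genes fell with 0 rises, and 11 of 34 carrier genes fell with 2 rises. The rises numbered 5 after quantile normalization and 4 after median-ratio scaling. The libraries did not overlap, Fraction 5 being lower, for 24 of the 54 genes against Fraction 3 (26.7% of all genes) and for 34 against Fraction 2 (35.8%). The risers in both were the iron carrier gene Slc25a37 and Slc25a45. These comparisons share the Fraction 5 libraries, and each of the 6 comparisons shares a gate with at least 1 other, so their values are not independent. Of the 22 calls against Fraction 3, 14 held whichever library was left out, and of the 30 against Fraction 2, 26 did.

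The next steps changed few import genes. Fraction 6 against Fraction 5, which differ in the Bcl6 reporter, had 4 genes higher and 6 lower of 54, near the background of 7.07% and 10.4%, with medians of -0.02 for the 54 genes and -0.002 for all. Fraction 7 against Fraction 6, which differ in Efnb1, had 1 higher and 8 lower, against 7.37% and 13.9%, with medians of -0.11 and -0.05. Only 1 import gene fell and 1 rose at the first of these steps and 2 fell at the second, the other calls being carrier genes. At the first step 3 of 10 calls held whichever library was left out, those of Slc25a10, Slc25a11 and Slc25a5. No gene was called higher without Fraction 5 library 2, 1 without Fraction 5 library 3 and 2 without either Fraction 6 library, and 3 genes were lower without Fraction 5 library 2 or 3 or Fraction 6 library 2. At the second step 5 of 9 held, among them those of Slc25a15, Slc25a40, Slc25a5 and Slc25a23, and 4 genes were lower without Fraction 6 library 2. Quantile normalization split the calls of the second step into 3 higher and 8 lower, and median-ratio scaling into 2 and 7.

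Fraction 7 against LZ sets the end of the series against the whole light zone gate. Of the 20 import genes 19 fell, all but Tomm34, and 0 rose. Of the 34 carrier genes 15 fell and 5 rose, Slc25a23, Slc25a36, Slc25a37, Slc25a42 and Slc25a45. In all 34 of 54 genes fell, against 38.0% of all genes, and 5 rose, against 24.1%, and the median was -0.52 against -0.10 for all genes. In either direction that is 39 genes, where 62.1% of all genes passed. Fraction 7 lay wholly below LZ for 36 of the 54 genes (38.9% of all genes). Scaling shifted the middle of all genes here: after median-ratio scaling 9 genes rose and the medians were -0.40 for the 54 genes and 0.02 for all, and after quantile normalization -0.29 and 0.02. Library 1 of Fraction 7, the one low in plasma cell transcripts, gave 27 lower and 4 higher genes when it stood alone for the gate. In the comparison with Fraction 6 it gave 6 lower and 1 higher.

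**Figure D2:**
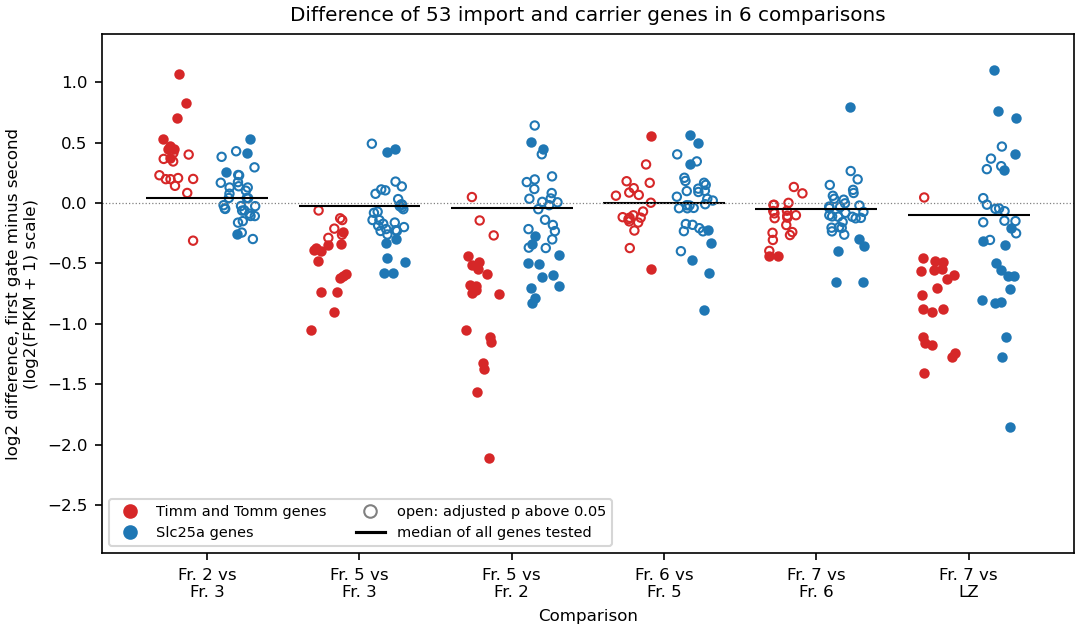
Log2 difference of 53 of the 54 genes in the 6 comparisons (first-named gate minus second), with Timm and Tomm genes in red on the left and Slc25a genes in blue on the right of each pair; filled points have an adjusted p of at most 0.05 in limma, and black lines give the median of all 11266 genes. The red points lie mostly above the line in Fraction 2 against Fraction 3 and below it in Fraction 5 against Fractions 3 and 2 and in Fraction 7 against LZ, where 19 of 20 are filled.

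Transcripts of dividing cells also differed between the gates. A list of 10 proliferation genes, among them Mki67 and Pcna, summed to 1098 to 1159 FPKM in LZ, 1379 to 1490 in Fraction 2, 1156 to 1229 in Fraction 3, 522 to 721 in Fraction 5, 186 to 202 in Fraction 6 and 118 to 140 in Fraction 7. Of these genes 2 rose and 0 fell in Fraction 2 against Fraction 3 (9.17% and 6.45% of all genes). All 10 had a positive difference there (median 0.34), with no overlap between the libraries of the gates. In each of the other 5 comparisons all 10 fell, where 10.4% to 38.0% of all genes did. Those medians ran from -0.70 in Fraction 7 against Fraction 6 to -3.43 in Fraction 7 against LZ. The steepest of the single steps for this list was from Fraction 5 to Fraction 6 (median -1.97), where the import genes had a median of -0.09. Myc, which encodes a transcription factor of growing cells, stood at 40.0, 31.6 and 34.2 FPKM in LZ, 54.6 and 45.4 in Fraction 2, 25.1, 26.9 and 21.1 in Fraction 3, 14.2, 14.6 and 18.7 in Fraction 5, 23.2 and 25.5 in Fraction 6, and 31.5, 30.3 and 32.1 in Fraction 7. It was thus highest in Fraction 2, lowest in Fraction 5 and higher again in Fractions 6 and 7. The part of division and of Myc in the values of the import and carrier genes was not tested.

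Genes of the TOM complex, the entry to the organelle, were mostly lower after the light zone. Of the 9 genes grouped with it 3 rose and 0 fell in Fraction 2 against Fraction 3 (9.17% and 6.45% of all genes). In Fraction 5, 6 fell against Fraction 3 (19.5% of all genes) and 7 against Fraction 2 (27.1%). In Fraction 7 against LZ 8 fell (38.0%), and 0 rose in these last 3 comparisons. Tomm40 stood at 69.9, 53.9 and 55.3 FPKM in LZ, 76.2 and 72.9 in Fraction 2, 59.5, 51.4 and 50.3 in Fraction 3, 25.9, 27.7 and 31.1 in Fraction 5, 26.7 and 33.6 in Fraction 6, and 22.9, 20.5 and 22.0 in Fraction 7. Every library of Fractions 5 to 7 lay below every library of the earlier gates, and Fraction 2 lay above all others. For this channel gene the difference was -0.90 ± 0.11 SE, adjusted p = 7.19e-05 in Fraction 5 against Fraction 3 and -1.40 ± 0.11 SE, adjusted p = 1.22e-07 in Fraction 7 against LZ. The call against Fraction 3 in Fraction 2 (0.47 ± 0.13 SE, adjusted p = 0.0247) was lost without either Fraction 2 library or without library 2 or 3 of Fraction 3. That of Fraction 7 against Fraction 6 (-0.44, adjusted p = 0.0229) was lost without Fraction 6 library 2 or Fraction 7 library 2. Fitting those gates alone, or using Fraction 7 library 1 alone, also lost it.

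The receptors and small subunits had smaller log2 differences than Tomm40 in Fraction 7 against LZ. Tomm22, the central receptor, had means of 97.3 ± 6.30 FPKM in Fraction 2, 84.7 ± 5.08 in Fraction 3, 64.3 ± 5.20 in Fraction 5 and 47.1 ± 3.95 in Fraction 7 (Fraction 5 against Fraction 3 -0.39 ± 0.09 SE, adjusted p = 0.00586, not past the threshold after quantile normalization). Tomm20, the receptor for targeting sequences, fell from 18.7 ± 0.0475 FPKM in LZ to 12.1 ± 0.282 in Fraction 7 (-0.59), and was already lower in Fraction 5 than in Fraction 3 (-0.34). Tomm70a, the receptor for carrier precursors, rose in Fraction 2 against Fraction 3 (31.4 ± 2.74 against 22.7 ± 1.37 FPKM, 0.45 ± 0.09 SE, adjusted p = 0.00485), a call lost without Fraction 2 library 2 (adjusted p = 0.0684). The small subunit gene Tomm5, with Tomm22 the most abundant of the 9, was at 87.8 ± 6.60 FPKM in LZ and 106 ± 5.92 in Fraction 2 and fell to 48.8 ± 5.44 in Fraction 5 (-1.11 against Fraction 2). Tomm6 and Tomm7 fell in Fraction 5 against Fraction 2 by 0.72 and 0.49, that of Tomm7 lost without either Fraction 2 library or without Fraction 5 library 1 or 3. Tomm40l, a second gene of the Tomm40 kind at a low level, fell in Fraction 7 against LZ (6.74 ± 1.07 against 11.5 ± 0.941 FPKM, -0.70 ± 0.10 SE, adjusted p = 2.65e-05). The exception was Tomm34, whose product is a cytosolic co-chaperone and no subunit of the complex. It lay between 32.6 and 40.7 FPKM in all 16 libraries and passed neither the F test (adjusted p = 0.105) nor any of the 6 comparisons.

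The TIM23 complex, the inner membrane channel for matrix proteins, showed mostly the same order with 5 genes. Timm17b did not share it: its mean was 24.9 ± 0.674 FPKM in Fraction 2, 31.3 ± 3.77 in Fraction 3 and 25.8 ± 1.95 in Fraction 5. In Fraction 2 against Fraction 3, 1 rose (9.17% of all genes). In Fraction 5, 4 fell against Fraction 3 (19.5% of all genes) and 4 against Fraction 2 (27.1%). All 5 fell in Fraction 7 against LZ (38.0%). Timm23 stood at 108, 101 and 102 FPKM in LZ, 121 and 117 in Fraction 2, 91.5, 93.2 and 77.6 in Fraction 3, 56.8, 60.8 and 53.8 in Fraction 5, 43.5 and 54.2 in Fraction 6, and 54.5, 38.7 and 45.3 in Fraction 7. Each library of Fractions 5 to 7 was below each of the earlier gates. Timm23, the channel gene, fell in Fraction 5 against Fraction 3 (-0.60 ± 0.11 SE, adjusted p = 0.00153) and in Fraction 7 against LZ (-1.16 ± 0.11 SE, adjusted p = 9.16e-07), and its rise in Fraction 2 (0.45, adjusted p = 0.0317) was lost without either Fraction 2 library or without Fraction 3 library 3. Timm50 stood at 50.003, 43.7 and 46.2 FPKM in LZ, 71.4 and 50.03 in Fraction 2, 47.0, 43.4 and 43.6 in Fraction 3, 20.0, 32.0 and 28.4 in Fraction 5, 19.6 and 20.6 in Fraction 6, and 20.2, 19.8 and 20.2 in Fraction 7. This receptor gene, which meets proteins as they leave the TOM channel, was at nearly 1 level in Fractions 6 and 7, and its Fraction 2 libraries lay far apart. Fraction 2 did not pass against Fraction 3 (adjusted p = 0.104). Its fall in Fraction 5 against Fraction 3 was -0.74 ± 0.15 SE, adjusted p = 0.00189. Timm44, which ties the motor chaperone to the channel, fell in Fraction 5 against Fraction 2 (-0.75 ± 0.13 SE, adjusted p = 0.000391) and in Fraction 7 against LZ (-0.56). Its fall in Fraction 5 against Fraction 3 (-0.35, adjusted p = 0.0377) was lost after quantile normalization or median-ratio scaling. Leaving out library 1 or 2 of Fraction 3, or library 2 or 3 of Fraction 5, also lost it. That of Timm17a (-0.39, adjusted p = 0.0452) was lost under both scalings and whichever library of those gates was left out.

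Timm17a and Timm17b encode alternative partners of the channel protein, and their levels drew together along the gates. Timm17a was above Timm17b in each library of LZ, Fraction 2 and Fraction 3, with means of 45.6 ± 3.56 against 30.2 ± 5.07 FPKM in LZ. In Fraction 6 both libraries had Timm17a below Timm17b, 21.9 and 17.4 against 24.8 and 21.2 FPKM, and in Fraction 7 the means were 18.7 ± 1.90 and 19.0 ± 1.75. Against LZ, Timm17a fell by 1.24 (adjusted p = 2.65e-06) and Timm17b by 0.63 (adjusted p = 0.000505), and the difference between the falls was not tested. Reads of such close relatives can be shared in the counting, so the split between them is uncertain.

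A small TIM gene, Timm8a1, had the largest difference of the import genes in Fraction 2 against Fraction 3 and in Fraction 5 against either. Of the 6 small TIM and TIM22 genes 4 rose and 0 fell in Fraction 2 against Fraction 3 (9.17% and 6.45% of all genes). In Fraction 5 against Fraction 3, 4 fell (19.5% of all genes). All 6 fell in Fraction 5 against Fraction 2 (27.1%) and in Fraction 7 against LZ (38.0%). Timm8a1 stood at 17.2, 22.4 and 19.1 FPKM in LZ, 29.8 and 34.2 in Fraction 2, 15.6, 14.5 and 14.2 in Fraction 3, 4.86, 8.03 and 7.33 in Fraction 5, 7.03 and 8.09 in Fraction 6, and 9.04, 7.64 and 5.95 in Fraction 7. Timm8a1, the mouse form of the gene mutated in deafness-dystonia syndrome, was thus highest in both Fraction 2 libraries, and every library of Fractions 5 to 7 lay below every light zone library. It was 2.17-fold higher in mean FPKM in Fraction 2 than in Fraction 3 (1.06 ± 0.18 SE, adjusted p = 0.0025) and fell by 2.11 in Fraction 5 against Fraction 2 (adjusted p = 1.31e-06), the largest fall of the 54 genes there.

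Timm9 and Timm10 encode the pair that escorts carrier precursors, and their start regions are among those printed above. Timm9 stood at 15.6, 12.05 and 14.7 FPKM in LZ, 26.8 and 18.1 in Fraction 2, 12.1, 12.5 and 11.4 in Fraction 3, 8.12, 5.81 and 6.60 in Fraction 5, 9.22 and 11.8 in Fraction 6, and 10.2, 9.69 and 9.91 in Fraction 7. Fraction 5 held the lowest values for Timm9, below all libraries of every other gate, and Fraction 2 the highest, with its 2 libraries apart. Timm10 stood at 14.7, 15.9 and 18.4 FPKM in LZ, 20.1 and 22.5 in Fraction 2, 12.4, 12.6 and 12.9 in Fraction 3, 8.20, 7.41 and 8.00 in Fraction 5, 10.4 and 9.74 in Fraction 6, and 12.1, 7.80 and 8.12 in Fraction 7. For Timm10, too, the Fraction 5 libraries were low, but Fraction 7 overlapped them. Timm9 rose in Fraction 2 against Fraction 3 (0.83 ± 0.16 SE, adjusted p = 0.00502), lost without Fraction 2 library 1 (adjusted p = 0.0739), and Timm10 did so (0.71 ± 0.14 SE, adjusted p = 0.00597), lost without Fraction 2 library 2 (adjusted p = 0.065). In Fraction 5 against Fraction 3 the falls were -0.74 ± 0.14 SE, adjusted p = 0.00191 for Timm9 and -0.62 ± 0.13 SE, adjusted p = 0.0026 for Timm10, and both held whichever library was left out. Timm9 was the 1 import gene that rose from Fraction 5 to Fraction 6 (0.56 ± 0.16 SE, adjusted p = 0.0297), a call lost without Fraction 5 library 2 or 3 or Fraction 6 library 2. Against LZ it was lower in Fraction 7 (-0.46), which was lost without LZ library 1, under quantile or median-ratio scaling, and with Fraction 7 library 1 alone. The Timm9 gene overlaps Tomm20l in the RefSeq table, and Tomm20l was listed at 0 in 15 libraries and at 0.482 FPKM in Fraction 3 library 1.

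Timm13, the partner of the Timm8 proteins, was the most abundant of this group, at 64.3 ± 8.67 FPKM in LZ and 34.4 ± 2.32 in Fraction 7 (-0.88 ± 0.11 SE, adjusted p = 7.90e-06), and fell from Fraction 3 to Fraction 5 (-0.48). Timm8b, the second Timm8 gene, was at 28.5 ± 2.50 FPKM in Fraction 3 and 24.6 ± 3.07 in Fraction 5 (adjusted p = 0.213). Its difference there, -0.21, stood beside -1.05 for Timm8a1. Timm22, the core of the insertion complex, fell in Fraction 5 against Fraction 2 (-0.51, adjusted p = 0.00259) but was not called against Fraction 3. It was at 8.51 ± 0.463 FPKM in Fraction 2, 6.41 ± 1.07 in Fraction 3, 5.67 ± 0.106 in Fraction 5, 5.13 ± 0.148 in Fraction 6 and 3.52 ± 0.390 in Fraction 7. Its rise in Fraction 2 against Fraction 3 (0.37, adjusted p = 0.0445) was lost after quantile normalization and without either Fraction 2 library. Timm22 also fell in the last step (-0.44 ± 0.11 SE, adjusted p = 0.0141). That call was lost without either Fraction 6 library or without Fraction 7 library 3. Fitting those gates alone, or using Fraction 7 library 1 alone, lost it too. Fraction 7 against LZ gave -0.90 ± 0.10 SE, adjusted p = 3.84e-06.

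**Figure D3:**
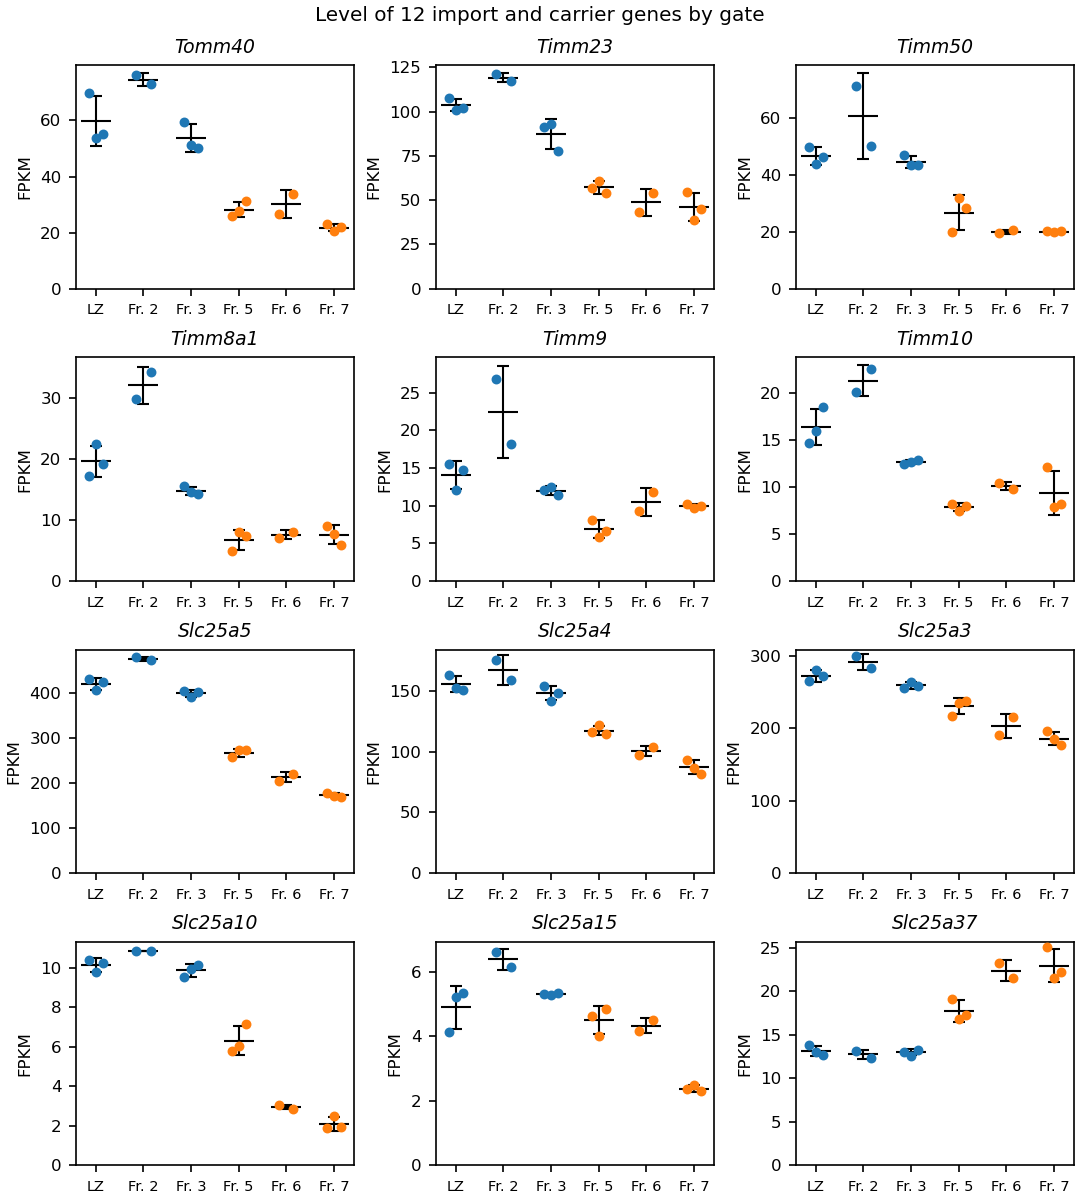
FPKM of 12 import and carrier genes by gate; each point is a library, the long bar is the mean and the error bar the SD (n = 2 for Fractions 2 and 6, n = 3 otherwise), with light zone gates in blue and CD38-positive gates in orange, and each axis starts at 0. Tomm40, Timm23, Timm50 and the small TIM genes drop between Fraction 3 and Fraction 5, Slc25a5 and Slc25a10 go down further to Fraction 7, Slc25a15 is lowest in Fraction 7 and Slc25a37 rises from Fraction 5 on.

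Among the carriers, the ADP/ATP and phosphate carriers, which supply ATP synthase with its substrates and export ATP, held the highest levels, led by Slc25a5. Slc25a5 stood at 429, 405 and 423 FPKM in LZ, 478 and 471 in Fraction 2, 404, 390.1 and 401 in Fraction 3, 256, 272 and 272 in Fraction 5, 205 and 219.8 in Fraction 6, and 177, 171 and 169 in Fraction 7. No gate overlapped another, and Slc25a5 was the 1 gene of the 54 called in all 6 comparisons. The difference was -0.58 ± 0.05 SE, adjusted p = 7.43e-06 in Fraction 5 against Fraction 3, -0.33 ± 0.06 SE, adjusted p = 0.00106 in Fraction 6 against Fraction 5, -0.30 ± 0.06 SE, adjusted p = 0.00191 in Fraction 7 against Fraction 6 and -1.28 ± 0.05 SE, adjusted p = 1.71e-10 in Fraction 7 against LZ. Its rise in Fraction 2 against Fraction 3 (0.25, adjusted p = 0.0103) was lost without either Fraction 2 library, and its fall in Fraction 7 against Fraction 6 was lost when those gates were fitted alone (adjusted p = 0.0787).

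Slc25a4 stood at 164, 153 and 151 FPKM in LZ, 176 and 159 in Fraction 2, 154, 142 and 149 in Fraction 3, 116, 122 and 115 in Fraction 5, 97.4 and 104 in Fraction 6, and 93.0, 86.8 and 81.7 in Fraction 7. This second ADP/ATP carrier gene, the main one of heart and muscle, fell by 0.33 in Fraction 5 against Fraction 3 (adjusted p = 0.00176) and by 0.83 in Fraction 7 against LZ (adjusted p = 8.62e-08). The ratio of Slc25a5 to Slc25a4 was 2.62 to 2.80 in the LZ libraries, 2.21 to 2.37 in Fraction 5 and 1.90 to 2.07 in Fraction 7, without overlap between these gates. The pair share much of their sequence and have processed copies in the genome, so how reads were divided between them is uncertain. Slc25a3 stood at 264, 280.3 and 271 FPKM in LZ, 299 and 283 in Fraction 2, 255, 264 and 258 in Fraction 3, 217, 235 and 238 in Fraction 5, 191 and 215 in Fraction 6, and 195, 184 and 177 in Fraction 7. Slc25a3, the phosphate carrier gene, lay below Slc25a5 in each library up to Fraction 6 and above it in all 3 libraries of Fraction 7. It fell in Fraction 5 against Fraction 2 (-0.34 ± 0.07 SE, adjusted p = 0.00129) and in Fraction 7 against LZ (-0.55 ± 0.06 SE, adjusted p = 3.33e-06), and did not pass against Fraction 3 (adjusted p = 0.051).

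Carriers of the same group with low levels did not share one direction. Slc25a23 stood at 1.06, 0.910 and 0.814 FPKM in LZ, 0.711 and 1.68 in Fraction 2, 1.46, 1.06 and 1.01 in Fraction 3, 1.22, 1.33 and 0.915 in Fraction 5, 1.32 and 1.45 in Fraction 6, and 3.39, 2.98 and 3.06 in Fraction 7. Slc25a23, a calcium-regulated carrier of ATP-Mg and phosphate, was higher in each Fraction 7 library than in any other library and rose in Fraction 7 against Fraction 6 (0.80 ± 0.17 SE, adjusted p = 0.00462) and against LZ (1.10 ± 0.15 SE, adjusted p = 2.71e-05). Slc25a25 of the same subfamily fell from 8.00 ± 0.493 FPKM in LZ to 4.91 ± 0.526 in Fraction 7 (-0.61 ± 0.10 SE, adjusted p = 8.04e-05). The pyrimidine nucleotide carrier genes went apart: Slc25a33 fell in Fraction 5 against Fraction 2 (2.84 ± 0.232 against 4.81 ± 0.138 FPKM, -0.60 ± 0.16 SE, adjusted p = 0.00667) and Slc25a36 rose in Fraction 7 against LZ (11.5 ± 0.378 against 6.68 ± 0.512 FPKM, 0.70 ± 0.13 SE, adjusted p = 0.000325). Slc25a17, a carrier of peroxisomes and not of mitochondria, passed the F test (adjusted p = 0.0267) but none of the 6 comparisons.

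The carriers of organic acids included the steepest fall of the 54 genes in Fraction 7 against LZ. Slc25a10 stood at 10.4, 9.78 and 10.2 FPKM in LZ, 10.9 and 10.9 in Fraction 2, 9.52, 9.95 and 10.2 in Fraction 3, 5.77, 6.02 and 7.14 in Fraction 5, 3.03 and 2.87 in Fraction 6, and 1.87, 2.50 and 1.93 in Fraction 7. The light zone gates lay between 9.52 and 10.9 FPKM, and each later gate lay below the one before without overlap. Slc25a10, the dicarboxylate carrier gene, fell in Fraction 5 against Fraction 3 (-0.58 ± 0.09 SE, adjusted p = 0.000475), in Fraction 6 against Fraction 5 (-0.88 ± 0.10 SE, adjusted p = 4.76e-05) and in Fraction 7 against LZ (-1.85 ± 0.09 SE, adjusted p = 1.19e-09). Its last step (-0.35, adjusted p = 0.0259) was lost without either Fraction 6 library or without Fraction 7 library 1 or 3.

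Slc25a11 stood at 51.4, 49.6 and 52.3 FPKM in LZ, 43.4 and 46.9 in Fraction 2, 54.4, 48.8 and 59.7 in Fraction 3, 47.3, 49.3 and 50.3 in Fraction 5, 36.1 and 34.0 in Fraction 6, and 35.0, 32.2 and 32.5 in Fraction 7. The oxoglutarate carrier gene Slc25a11 did not pass in Fraction 5 against Fraction 3 (adjusted p = 0.157) and fell in Fraction 6 (-0.47 ± 0.08 SE, adjusted p = 0.000906), with no overlap between Fractions 6 and 7 and the earlier gates. It was also the 1 gene lower in Fraction 2 than in Fraction 3 (-0.26, adjusted p = 0.045), a call lost without either Fraction 2 library or without library 1 or 3 of Fraction 3. Slc25a11 overlaps Rnf167 in the RefSeq table, and the libraries carry no strand. The citrate carrier gene Slc25a1 fell from 24.1 ± 2.97 FPKM in Fraction 3 to 17.2 ± 1.24 in Fraction 5 (-0.46 ± 0.12 SE, adjusted p = 0.0117), lost without Fraction 3 library 3 or Fraction 5 library 1, and was at 17.1 ± 3.17 in Fraction 7 against 28.4 ± 2.86 in LZ (-0.71 ± 0.12 SE, adjusted p = 0.00015). Of the aspartate-glutamate carriers of the malate-aspartate shuttle, Slc25a13 fell in Fraction 5 against Fraction 2 (2.24 ± 0.0724 against 4.60 ± 0.622 FPKM, -0.78 ± 0.18 SE, adjusted p = 0.00266) and in Fraction 7 against LZ (-1.11). Slc25a12 fell in Fraction 7 against LZ (15.3 ± 1.21 against 19.7 ± 1.29 FPKM, -0.35, adjusted p = 0.00225), a call lost after quantile normalization and with Fraction 7 library 1 alone. Slc25a20, which brings fatty acids in as acylcarnitines, was called in no comparison and lay between 9.89 and 13.3 FPKM in the 16 libraries.

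Amino acid carriers changed in few comparisons. Slc25a15 stood at 4.14, 5.21 and 5.34 FPKM in LZ, 6.61 and 6.16 in Fraction 2, 5.29, 5.26 and 5.35 in Fraction 3, 4.63, 4.00 and 4.85 in Fraction 5, 4.16 and 4.49 in Fraction 6, and 2.35, 2.48 and 2.29 in Fraction 7. Slc25a15, the ornithine carrier of the urea cycle and of polyamine supply, was lower in each Fraction 7 library than in all others and fell by 0.66 against Fraction 6 (adjusted p = 0.000569) and by 0.80 against LZ (adjusted p = 5.93e-06). The glutamate carrier gene Slc25a22 rose in Fraction 6 against Fraction 5 (13.4 ± 1.14 against 9.21 ± 1.28 FPKM, 0.50 ± 0.14 SE, adjusted p = 0.0292), a call lost without Fraction 5 library 2 or 3 or without either Fraction 6 library. Slc25a38, which brings in glycine for haem synthesis, was at 13.3 ± 1.14 FPKM in LZ and 11.3 ± 0.721 in Fraction 7 (-0.21 ± 0.09 SE, adjusted p = 0.0487), with overlapping libraries and a call lost without LZ library 2 or 3 or Fraction 7 library 2 or 3 and under both other scalings. Slc25a29, a carrier of basic amino acids near the lower limit, passed the F test (adjusted p = 0.0345) but no comparison, and Slc25a44 passed neither. Slc25a29 reached 1 FPKM only in Fraction 6 (1.54 and 1.22) and in libraries 1 and 2 of Fraction 7 (1.62 and 1.10). The filter thus kept it through the gates where it was highest, and its F test is not independent of that choice.

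Carriers of cofactors, glutathione and iron went in both directions. Slc25a40 stood at 4.97, 5.36 and 5.66 FPKM in LZ, 4.51 and 5.12 in Fraction 2, 5.18, 5.28 and 6.08 in Fraction 3, 5.40, 5.15 and 6.47 in Fraction 5, 4.88 and 4.43 in Fraction 6, and 2.38, 2.86 and 2.53 in Fraction 7. Slc25a40, a glutathione carrier gene, was lowest in each Fraction 7 library and fell in Fraction 7 against Fraction 6 (-0.66 ± 0.11 SE, adjusted p = 0.000847). Its relative Slc25a39 did not fall at that step: it was highest in Fraction 2 (33.3 ± 3.44 FPKM against 22.8 ± 1.55 in Fraction 3, 0.53 ± 0.11 SE, adjusted p = 0.00622, lost without Fraction 2 library 1) and at 21.6 ± 1.05 and 21.2 ± 1.94 in Fractions 6 and 7 (adjusted p = 0.884). Slc25a39 fell in Fraction 5 against Fraction 2 (-0.69, adjusted p = 0.000176), whichever library was left out. Its fall in Fraction 7 against LZ (-0.31, adjusted p = 0.0118) was lost after quantile normalization or median-ratio scaling.

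Slc25a37 stood at 13.8, 13.01 and 12.6 FPKM in LZ, 13.1 and 12.3 in Fraction 2, 13.03, 12.6 and 13.3 in Fraction 3, 19.1, 16.8 and 17.3 in Fraction 5, 23.2 and 21.5 in Fraction 6, and 25.1, 21.6 and 22.2 in Fraction 7. Slc25a37, mitoferrin 1, which takes iron into mitochondria, was thus in a narrow band in the light zone gates and above it in every library of Fractions 5 to 7. It rose in Fraction 5 against Fraction 3 (0.42 ± 0.07 SE, adjusted p = 0.000895) and against Fraction 2 (0.45 ± 0.08 SE, adjusted p = 0.000632) and in Fraction 7 against LZ (0.76 ± 0.07 SE, adjusted p = 7.97e-07), while its rise from Fraction 5 to Fraction 6 (0.32, adjusted p = 0.015) was lost without Fraction 5 library 2 or Fraction 6 library 1. Mitoferrin 1 is best known from red cell precursors. Their 5 markers, mostly Hba-a1 and Hbb-b1, summed to 27.2 to 55.3 FPKM in LZ, 24.1 to 53.4 in Fraction 2 and 31.1 to 39.0 in Fraction 3. The sums were 11.2 to 69.2 FPKM in Fraction 5, 19.5 to 74.9 in Fraction 6 and 26.4 to 57.1 in Fraction 7. The part of red cell transcripts in the Slc25a37 values was not tested. The second mitoferrin gene, Slc25a28, lay between 17.8 and 27.1 FPKM and was called in no comparison. Slc25a32, which carries folate, was at 7.10 ± 1.17 FPKM in Fraction 2 and 4.29 ± 0.622 in Fraction 5 (-0.62 ± 0.14 SE, adjusted p = 0.00341, lost without Fraction 2 library 2). Slc25a42, a carrier of coenzyme A, rose in Fraction 2 against Fraction 3 (3.32 ± 0.0919 against 2.25 ± 0.123 FPKM, adjusted p = 0.0155, lost without either Fraction 2 library or Fraction 3 library 3) and in Fraction 7 against LZ (0.27, lost without LZ library 3 and with Fraction 7 library 1 alone). Slc25a16 and Slc25a26, the latter the carrier of S-adenosylmethionine, were called in none.

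Among the less characterised carriers Slc25a45 rose in 3 comparisons. Its means were 16.5 ± 3.14 FPKM in LZ, 13.5 ± 0.158 in Fraction 2, 14.2 ± 1.05 in Fraction 3, 19.8 ± 2.92 in Fraction 5, 22.5 ± 0.212 in Fraction 6 and 21.9 ± 0.882 in Fraction 7. It rose in Fraction 5 against Fraction 2 (0.51 ± 0.14 SE, adjusted p = 0.00788) and against Fraction 3 (0.45, lost without Fraction 3 library 2 or Fraction 5 library 1 or 3). Its rise in Fraction 7 against LZ (0.41, adjusted p = 0.00961) was lost without LZ library 2 and with Fraction 7 library 1 alone. Slc25a30 rose in Fraction 6 against Fraction 5 (5.59 ± 1.43 against 3.43 ± 0.267 FPKM, adjusted p = 0.0427), which was lost without any 1 Fraction 5 library or Fraction 6 library 1, and it did not pass the F test (adjusted p = 0.0705). Slc25a35 passed the F test (adjusted p = 0.0358) but no comparison, and Slc25a14, Slc25a43 and Slc25a46 passed neither.

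**Figure D4:**
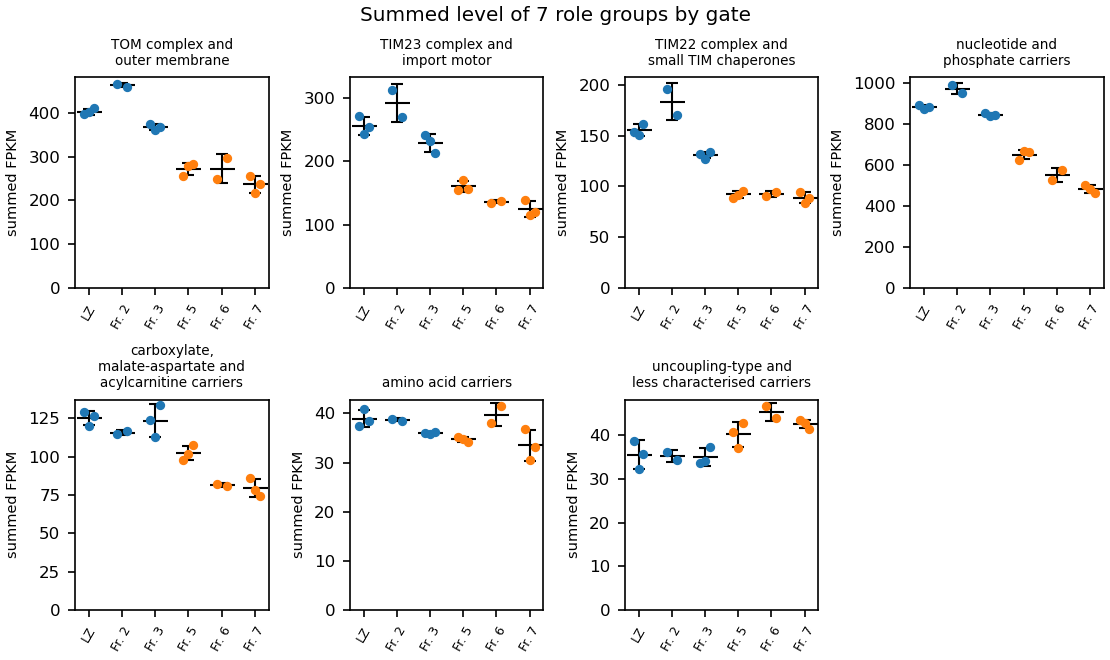
Summed FPKM of the genes of 7 role groups by gate; each point is a library, the long bar the mean and the error bar the SD (n = 2 for Fractions 2 and 6, n = 3 otherwise), with light zone gates in blue and CD38-positive gates in orange. The TOM, TIM23 and TIM22 sums drop between Fraction 3 and Fraction 5, from 131 to 92.0 FPKM for TIM22 and the small TIM genes. The mean sum of the less characterised carriers goes from 35.0 FPKM in Fraction 3 to 40.2 in Fraction 5 with libraries that overlap, and Slc25a45 is the 1 gene of that group called higher there.

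TOM genes summed to 403 ± 7.02 FPKM in LZ, 463 ± 5.15 in Fraction 2, 367 ± 6.11 in Fraction 3, 272 ± 14.2 in Fraction 5, 272 ± 33.6 in Fraction 6 and 236 ± 19.5 in Fraction 7. Nucleotide and phosphate carriers went from 884 ± 10.4 FPKM in LZ through 651 ± 23.0 in Fraction 5 to 482 ± 20.7 in Fraction 7. Amino acid carriers stayed between 30.6 and 41.5 FPKM in every library. Sums are ruled by their most abundant genes, such as Slc25a5 among the nucleotide carriers.

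Other genes of the import pathway, from a list of 25, differed mostly in the directions given for the Timm and Tomm genes. Of the 25, 9 rose and 0 fell in Fraction 2 against Fraction 3 (9.17% and 6.45% of all genes). In Fraction 5, 10 fell and 0 rose against Fraction 3 (19.5% and 9.99%). Against Fraction 2, 16 fell and 0 rose (27.1% and 16.6%), and in Fraction 7 against LZ 19 fell and 1 rose (38.0% and 24.1%). In Fraction 6 against Fraction 5 there was 1 fall, of Immp1l (-0.47), where 10.4% of all genes fell. In Fraction 7 against Fraction 6 there was 1 rise, of Immp2l, where 7.37% of all genes rose. The matrix chaperone gene Hspd1 was at 185 ± 9.61 FPKM in Fraction 2, 90.7 ± 9.41 in Fraction 3 and 43.0 ± 6.64 in Fraction 5, a difference of -1.06 ± 0.12 SE, adjusted p = 4.03e-05 between the last 2. Hspa9, which encodes the motor of the TIM23 complex, differed by 0.84 in Fraction 2 against Fraction 3 and by -1.03 in Fraction 5 against Fraction 3, and the co-chaperonin gene Hspe1 by 0.76 and -0.55. Pmpca, a subunit of the peptidase that removes targeting sequences, fell in Fraction 7 against LZ (-0.80). Immp2l, a subunit of the inner membrane peptidase, ran against all of these: it was at 2.48 and 2.09 FPKM in Fraction 6 and 9.62, 6.24 and 9.05 in Fraction 7 (1.48 ± 0.27 SE, adjusted p = 0.0014).

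Other mitochondrial transport genes, 18 tested of a list of 20, went in both directions. In Fraction 2 against Fraction 3, 1 rose and 4 fell (9.17% and 6.45% of all genes). In Fraction 5, 0 rose and 7 fell against Fraction 3 (9.99% and 19.5%), and 3 rose and 8 fell against Fraction 2 (16.6% and 27.1%). In Fraction 6 against Fraction 5 the counts were 1 and 2 (7.07% and 10.4%) and in Fraction 7 against Fraction 6 they were 2 and 3 (7.37% and 13.9%), both near the share of all genes. In Fraction 7 against LZ 4 rose and 11 fell (24.1% and 38.0%). The outer membrane pore genes all fell in Fraction 5 against Fraction 3, by 0.43 for Vdac1, 0.49 for Vdac2 and 0.51 for Vdac3. Vdac3 fell again in Fraction 6 (-0.55 ± 0.08 SE, adjusted p = 0.000388), and Mtch2, an outer membrane insertase gene, did so too (-0.39). Ucp2, a member of the carrier family under another name, was lower in Fraction 2 than in Fraction 3 (249 ± 0.261 against 357 ± 31.9 FPKM, -0.52 ± 0.09 SE, adjusted p = 0.00327) and fell in Fraction 7 against Fraction 6 (-0.69). The sideroflexin genes, of which Sfxn1 carries serine into mitochondria, went opposite ways. Sfxn1 fell from 28.9 ± 1.17 FPKM in Fraction 3 to 17.8 ± 2.14 in Fraction 5 (-0.67). Sfxn3 was at 5.76, 4.94 and 5.10 FPKM in Fraction 5, 9.93 and 11.6 in Fraction 6 and 22.7, 15.9 and 17.2 in Fraction 7, with no overlap, and rose at both steps (0.91 ± 0.19 SE, adjusted p = 0.00418 and 0.72 ± 0.19 SE, adjusted p = 0.0144).

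Of the 54 genes 12 were called in none of the 6 comparisons, 11 of them carriers and the other Tomm34. Called in 5 comparisons were Slc25a10, Timm9 and Tomm40. The same counts over all genes are not given here, so these numbers do not set the 54 genes apart from the rest. By the RefSeq gene table, another gene overlaps 19 of the 54, among them Tomm6 with Usp49 and Frs3, Timm13 with Tmprss9 and Slc25a37 with 3 predicted genes, and without strand such reads cannot be told apart. The myeloid marker Itgam was at 12.8, 8.22 and 12.5 FPKM in Fraction 7 and at 1.53 or less elsewhere, and the 5 myeloid markers summed to 14.95 to 32.5 in Fraction 7 against 16.5 or less elsewhere, while Csf1r, another of them, stayed at or below 0.528. Their part in the Fraction 7 values was not tested.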

How the data were processed

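RNA of the sorted cells was extracted in TRIzol and turned into libraries with a NEBNext Ultra kit, which does not keep the strand, per the labels' protocols. The deposited values are FPKM per gene, which the authors made with TopHat2 2.0.8 on mm9 and Cufflinks 2.1.1, per the submitters' processing notes. They are not counts, so no count model was used. Of the table, 1 row that names no gene was dropped, and 23234 named genes remained. The 11266 genes that reached 1 FPKM in 2 or more libraries entered the test as log2(FPKM + 1). The means of 6 gates over all 16 libraries were fitted with limma 3.58.1 (R 4.3.3), with a trend of the variance on the mean level. Benjamini-Hochberg adjustment was made separately for each of the 6 comparisons and for the F test over the gates, with a threshold of 0.05. The model was run on data simulated from its own gene means and spread, which cannot show whether it suits the FPKM values. Python 3.11.15, pandas 2.3.3, numpy 2.4.6 and matplotlib 3.10.9 made the tables and plots.

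The genes, their role groups and the lists of other genes were chosen with earlier results of these data known. Named were the smallest F test p-values per role group (up to 3), per comparison up to 4 genes in each direction with a mean of at least 5 FPKM, genes called against the main direction, a panel of well-known genes, and up to 3 per comparison from each list of other genes; the remaining genes are mentioned to account for the 54. The values of 1 of the 54 genes are not reported here, although it is counted in every total. Promoter windows came from RefSeq tables of GRCm38.p6, so no mm9 coordinates are printed; symbols of all 54 genes were found there. The alternatives tried were a pseudocount of 0.1, quantile normalization, scaling by median ratios, leaving the filter out, a filter of 5 FPKM, a replicate block, the compared gates alone, and each library left out. Using Fraction 7 library 1 alone was added after seeing the data. Depth relative to LZ library 1 was read from the steps of low FPKM values. List genes found under older symbols were 1700034H14Rik (Timm21), Fxc1 (Timm10b), 1810026J23Rik (Timm29), Mcart1 (Slc25a51), Brp44l (Mpc1), Brp44 (Mpc2), Ccdc109a (Mcu), Igj (Jchain) and Emr1 (Adgre1), and Trac was not found.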

Additional observations from a re-analysis of the deposited data

How the results depend on the processing

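Of 110 calls of named genes, 98 stayed past the threshold after quantile normalization, 103 after median-ratio scaling, 109 with a pseudocount of 0.1, 96 without a filter, 103 of 104 with a filter of 5 FPKM, 90 with the compared gates fitted alone, and 75 whichever library was left out; 0 changed sign. Without a filter, Fraction 2 against Fraction 3 gave 7 higher and 0 lower genes and Fraction 6 against Fraction 5 gave 1 higher and 3 lower. With the compared gates alone, the first had 0 lower, the second 0 higher and 3 lower, and Fraction 7 against Fraction 6 had 3 lower. Quantile normalization gave 5 higher genes in Fraction 5 against Fraction 2 and 3 in Fraction 7 against Fraction 6. Median-ratio scaling gave 4 and 2, and 9 in Fraction 7 against LZ. A filter of 5 FPKM left 0 higher in Fraction 7 against Fraction 6 and 3 in Fraction 7 against LZ, since genes below it were not tested. For the other settings the cause was not tested. Counts over all genes are not given for these alternatives or with a library left out.

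Leaving out 1 library gave 3 to 9 higher and 0 to 1 lower genes in Fraction 2 against Fraction 3, 1 to 2 higher in Fraction 5 against Fraction 3, 0 to 3 higher and 3 to 5 lower in Fraction 6 against Fraction 5, and 4 to 10 lower in Fraction 7 against Fraction 6. Gates left with 1 library were assumed to vary like the others. The main fit did not pair libraries by replicate number. Deviations of same-numbered libraries correlated between -0.148 and 0.259. Differently numbered libraries were not compared in this way, so these values cannot tell whether same-numbered libraries share a sort. With a replicate block, higher and lower genes numbered 10 and 0 in Fraction 2 against Fraction 3, 2 and 21 in Fraction 5 against Fraction 3, 2 and 29 against Fraction 2, 3 and 6 in Fraction 6 against Fraction 5, 1 and 8 in Fraction 7 against Fraction 6, and 5 and 33 against LZ. Absolute depth is unknown, so the precision of low values cannot be given.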
